A study of Mus musculus with 16 samples.

Results

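The 10 genes described here are Glul, Cyp2e1, Cyp1a2, Axin2, Lgr5, Tbx3, Rnf43, Slc1a2, Rhbg and Oat. They are known genes of the hepatocytes around the central vein and known targets of Wnt signalling, listed by name with no threshold on measured values, although earlier results of these data were known when they were listed. All 10 had a row among the 13006 genes of the table, and all 10 passed the filter on low counts that left 12918 genes for testing.

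In the liver lobule, blood flows from the portal field towards the central vein, and hepatocytes along this path carry out different tasks. Endothelial cells of the central vein secrete Wnt ligands and R-spondin, which keep beta-catenin active in the nearest hepatocytes. Beta-catenin then works with TCF/LEF factors on target genes, which include feedback regulators of the pathway, enzymes and transporters that capture ammonia as glutamine, and cytochromes P450 that oxidise drugs and other small molecules.

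Liver tissue was profiled by sequencing of poly(A) RNA in 4 groups of 4 libraries, all from mice labelled Humanized PXR-CAR-CYP3A4/3A7, in which human forms of 2 xenobiotic receptors and of CYP3A enzymes are present in every group, controls included. EM mice received both ethinylestradiol (EE), a synthetic estrogen that causes cholestasis, at 10 mg/kg under the skin in propylene glycol for 7 days, and MI763F, a ligand of the receptor CAR named by a code, by gavage of 2.5 mg/kg on 6 days that began on day 2. EV mice received EE without MI763F, CM mice received MI763F without EE, and CV mice received the propylene glycol vehicle. The labels do not say whether EV and CV mice were given the oral formulation without the ligand, give no age or sex, and do not state that every library came from a separate animal. The p-values therefore cover only the spread among these libraries, which may be technical. Levels are given as CPM, estimated counts relative to library size after correction with factors for library composition.

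Library totals ran from 14115384 to 21473227 estimated counts. The composition factors lay between 1.1 and 1.23 in the 8 libraries with EE and between 0.833 and 0.91 in the 8 without it, so EE moved with the scaling. When library totals were used in place of these factors, the median of all genes shifted by 0.49 on the log2 scale in EV vs CV. On the first principal component, EM replicate 1 (62.6) was closer to the EV libraries (66.7 to 75.4) than to the other EM libraries (37.1 to 46.7). CM replicate 2 stood apart from the other CM libraries on the second component, at -58.9 against -16.1 to -7.98. In bulk tissue, fewer cells of a type and less RNA per cell cannot be told apart.

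RefSeq promoters, in the GRCm38.p6 build, were at hand for 7 of the 10 genes, all but Lgr5, Tbx3 and Rhbg. A TCF/LEF core (CTTTGA or CTTTGT, on either strand) was searched for in the 250 bases before and 50 after each start. It was found in the promoters of 3 of these 7 genes, Cyp2e1, Cyp1a2 and Slc1a2, and in 31.2% of the 32851 mouse promoters of the same length. The 250 bases before the start are shown for these 3 genes and for Glul, where no such core was found, because Glul is the gene most often used to mark the cells at the central vein. Sequences run 5′ to 3′ along the gene's strand, and capitals mark the TCF/LEF core.
Cyp2e1, chr7:140763569-140763818, + strand: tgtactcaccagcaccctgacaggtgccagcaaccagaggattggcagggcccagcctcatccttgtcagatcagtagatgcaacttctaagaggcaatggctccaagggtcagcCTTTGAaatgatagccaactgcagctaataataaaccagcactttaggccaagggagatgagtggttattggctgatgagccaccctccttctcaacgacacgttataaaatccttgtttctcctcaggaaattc
Cyp1a2, chr9:57683656-57683905, - strand: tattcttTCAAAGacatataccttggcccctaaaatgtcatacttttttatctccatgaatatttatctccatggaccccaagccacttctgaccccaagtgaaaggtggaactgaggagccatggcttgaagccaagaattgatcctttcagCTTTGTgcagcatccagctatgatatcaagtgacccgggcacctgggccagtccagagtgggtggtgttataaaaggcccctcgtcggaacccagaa
Slc1a2, chr2:102706188-102706437, + strand: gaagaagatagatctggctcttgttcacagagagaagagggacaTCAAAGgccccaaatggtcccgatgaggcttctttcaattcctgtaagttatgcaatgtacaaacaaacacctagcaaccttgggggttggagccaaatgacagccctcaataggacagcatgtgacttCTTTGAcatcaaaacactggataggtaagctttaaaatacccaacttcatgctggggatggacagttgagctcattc
Glul, chr1:153899679-153899928, + strand: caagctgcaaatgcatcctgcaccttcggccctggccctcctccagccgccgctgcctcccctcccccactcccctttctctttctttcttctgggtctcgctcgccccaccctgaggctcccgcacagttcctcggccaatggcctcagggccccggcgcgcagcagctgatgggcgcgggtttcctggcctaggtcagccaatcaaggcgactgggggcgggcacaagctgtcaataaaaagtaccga
The core starts 135 bases before the start of Cyp2e1, 243 and 97 bases before that of Cyp1a2, and 206 and 77 bases before that of Slc1a2. Enhancers further from the start were not searched.

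The AHR core GCGTG was found in 1 of the 7 genes, 71 bases before 1 of the 2 starts of Rnf43, and in 32.4% of all promoters. The palindromic estrogen response element, which binds the receptor for EE, and the HNF1 site GTTAAT were found in none of the 7, and in 0.07% and 7.1% of all promoters. These matches describe the letters in these windows only.

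Compared per kilobase of exon, the 10 genes differed widely in level in CV livers. The deposited values appear already rescaled by length, so this division may correct for length a second time. The order of the genes is therefore uncertain. Cyp2e1 stood highest, at 2801 ± 506 CPM per kb (SD, n = 4). Oat (375 ± 84.9), Glul (231 ± 19.2) and Cyp1a2 (220 ± 61.4 CPM per kb) followed. Per kb, every Oat library (255 to 452) lay above every Glul library (212 to 251), while Glul and Cyp1a2 (142 to 287 CPM per kb) overlapped. Without the division, Oat (601 to 1068 CPM) and Glul (705 to 834 CPM) overlapped and Cyp1a2 (285 to 578 CPM) lay below Glul. Slc1a2 (4.32 ± 1.04), Rhbg (2.19 ± 0.408), Tbx3 (1.8 ± 0.528), Rnf43 (1.42 ± 0.426), Axin2 (0.575 ± 0.361) and Lgr5 (0.345 ± 0.114 CPM per kb) were low. Among these, Slc1a2 lay above Rhbg in every CV library, while the ranges of each further pair of neighbours overlapped. Without the division, Rhbg (3.2 to 5.12 CPM) lay below Tbx3 (7.1 to 15.5 CPM) and Rnf43 (7.1 to 13.4 CPM). In EV livers Cyp2e1 no longer stood apart: Oat lay at 229 (174 to 278) and Cyp2e1 at 195 (158 to 232) CPM per kb, with overlapping ranges.

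EE without the ligand was compared with vehicle to ask what cholestatic estrogen treatment did to these genes. In EV vs CV, 9 of the 10 genes fell and Axin2 did not pass the test (edgeR's quasi-likelihood test, adjusted p under 0.05). EE changed a large part of the transcriptome: 50.4% of all tested genes passed, 25.5% upward and 24.9% downward. The median log2 fold change was -1.91 over the 10 genes and 0.00 over all tested genes. In 8 of the 10 every EV library lay below every CV library, which held for 22.7% of all genes. When scaled by library totals alone, 8 of the 10 still passed downward, with a median of -1.43. On that scaling 1329 of the 12918 tested genes passed downward.

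**Figure D1:**
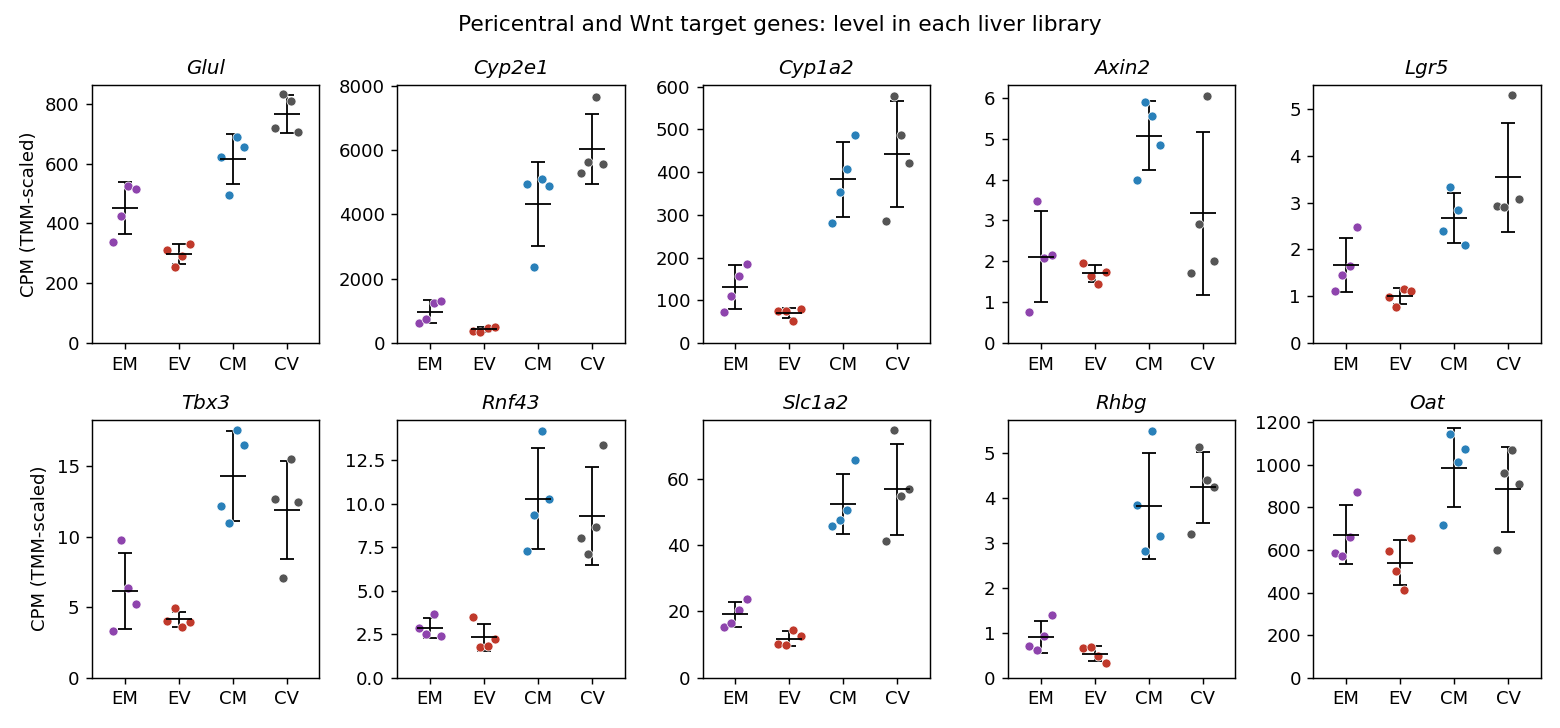
Level of each of the 10 genes in CPM (linear axis, scaled by composition factors) in every library, by group. Points are libraries, the long bar is the mean and the whiskers are 1 SD (n = 4). For Cyp2e1 the EV libraries lie between 341 and 500 CPM and the CV libraries between 5303 and 7668 CPM.

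The Wnt receptor complex and its feedback genes come first. Rnf43, a membrane ubiquitin ligase that removes Wnt receptors from the cell surface, had 3.48, 1.75, 1.81 and 2.21 CPM in EV livers, against 8.04, 7.1, 8.66 and 13.4 CPM in CV livers. The groups did not overlap, and EV livers held 25% of the CV level (95% interval of the ratio 0.173 to 0.361, adjusted p = 2.14e-05). Lgr5, the R-spondin receptor that counteracts Rnf43, had 0.974, 0.778, 1.15 and 1.1 CPM in EV livers, against 2.92, 2.9, 5.29 and 3.07 CPM in CV livers. Here too the groups were apart, with EV at 28.3% of CV (log2 fold change -1.82 ± 0.283 SE, adjusted p = 7.81e-05), although CV replicate 3 was far above its group. Leaving any library out kept the Lgr5 change between -1.90 and -1.56.

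Axin2, a scaffold of the complex that destroys beta-catenin and itself a Wnt target in most tissues, had 1.95, 1.65, 1.45 and 1.73 CPM in EV livers, against 1.71, 2.9, 6.05 and 2 CPM in CV livers. The EV libraries were tight and the CV libraries spread widely, so that the groups overlapped (-0.89 ± 0.412, adjusted p = 0.0835). Without CV replicate 3 the difference was -0.37, and without CV replicate 1 it was -1.10 and passed (adjusted p = 0.0425). The libraries held only 14 to 92 estimated counts of Axin2, which are not raw reads, so the precision of its value is uncertain. Tbx3, a transcription factor gene induced by beta-catenin in hepatocytes, had 4.04, 4.91, 3.62 and 3.94 CPM in EV livers, against 12.7, 7.1, 15.5 and 12.5 CPM in CV livers. Every EV library was lower than every CV library (34.6% of CV, -1.53 ± 0.291, adjusted p = 4.59e-04). Its antisense neighbour Tbx3os1, which shares 115 bp of exon, changed by -1.44 ± 0.34 (adjusted p = 0.00252). Since the handling of strand is not given in the sources used here, reads within these 115 bp cannot be assigned to either gene. Tbx3 has 6624 bp of exon in all.

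The enzymes and carriers of glutamine, glutamate and ammonia fell to different depths. Glul, the glutamine synthetase that joins ammonia to glutamate, had 312, 254, 291 and 330 CPM in EV livers, against 720, 834, 809 and 705 CPM in CV livers. Its groups were tight and far apart, at 38.7% of CV in EV (95% interval of the ratio 0.319 to 0.47, adjusted p = 1.67e-06). Slc1a2, a glutamate importer, had 10.2, 9.92, 14.4 and 12.7 CPM in EV livers, against 41.2, 74.5, 54.6 and 56.8 CPM in CV livers. This was 20.8% of CV (-2.27 ± 0.196, adjusted p = 3.05e-07), with no overlap. Rhbg, an ammonia channel of the Rhesus family, had 0.65, 0.681, 0.483 and 0.315 CPM in EV livers, against 3.2, 5.12, 4.4 and 4.24 CPM in CV livers. It stood at 12.8% of CV (-2.97 ± 0.325, adjusted p = 2.74e-06). Its libraries held only 6 to 72 estimated counts, and 1190 bp of its exons are shared with Gm38392, an annotated gene of the same strand that was not analysed here, so its level is uncertain.

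Oat, ornithine aminotransferase, which turns ornithine into a precursor of glutamate, had 597, 501, 412 and 656 CPM in EV livers, against 601, 962, 1068 and 909 CPM in CV livers. It passed the test at 61.2% of CV (-0.71 ± 0.201, adjusted p = 0.00833), but its groups overlapped, since CV replicate 1 lay among the EV libraries. The call rests on the scaling: with library totals the change was -0.22 (adjusted p = 0.355).

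The cytochromes P450 also fell, and Cyp2e1 had the deepest fall of the 10 genes. Cyp2e1, which oxidises ethanol, acetone and paracetamol, had 385, 341, 460 and 500 CPM in EV livers, against 5303, 5632, 7668 and 5575 CPM in CV livers. The level in EV was 14.3-fold lower (95% interval of the EV over CV ratio 0.0467 to 0.104, adjusted p = 1.02e-07). Cyp1a2, which metabolises caffeine and estrogens, had 73.9, 74.2, 52.1 and 78.8 CPM in EV livers, against 285, 578, 488 and 421 CPM in CV livers. It stood at 15.8% of CV (-2.67 ± 0.289, adjusted p = 2.81e-06), again with every EV library below every CV library. Cyp1a2 is also induced through the receptor AHR, whose own messenger fell modestly (Ahr -0.42 ± 0.103, adjusted p = 0.00337, and 0.06 with library totals). Of the 3 measured AHR targets on a list of 7, Tiparp rose (0.79 ± 0.29, adjusted p = 0.0341, lost in 5 of 8 fits that left out a library), Ugt1a6a fell (-0.66, adjusted p = 0.002) and Nqo1 did not pass. With library totals Tiparp still passed upward, while Ugt1a6a no longer passed.

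**Figure D2:**
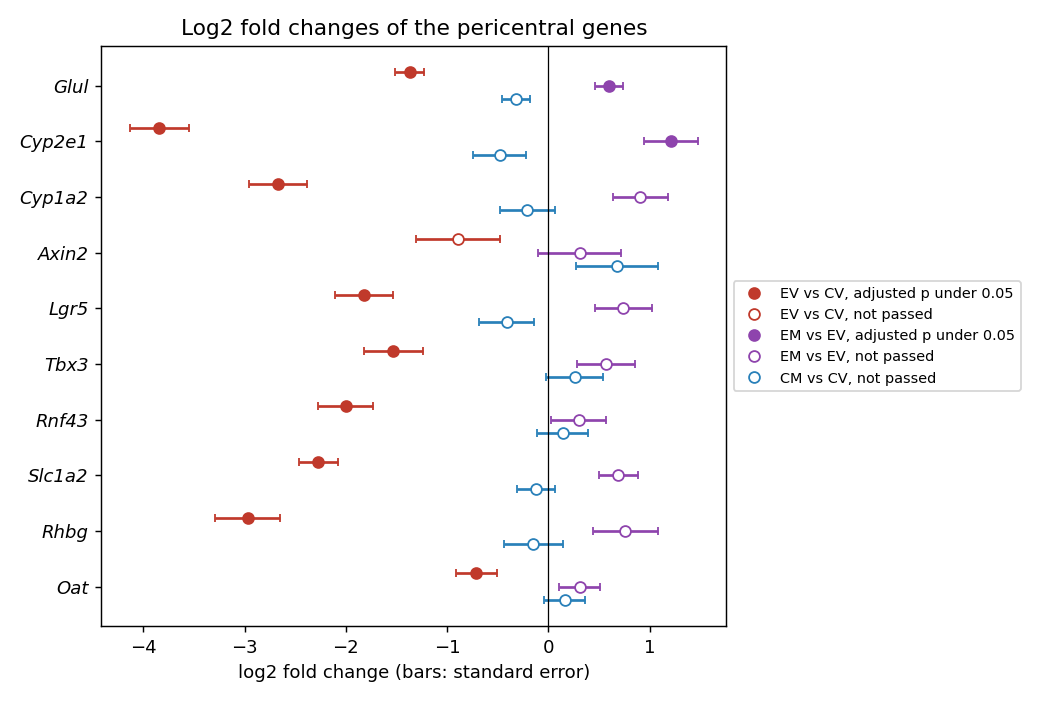
Log2 fold change (horizontal axis) of the 10 genes for EV vs CV, EM vs EV and CM vs CV, with standard errors from edgeR. Filled points passed an adjusted p of 0.05 and open points did not. The EV vs CV points lie between -3.84 and -0.71 and the EM vs EV points between 0.30 and 1.21. The fits share the EV and CV libraries.

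MI763F without EE was compared with vehicle to ask what the ligand did in livers without cholestasis. In CM vs CV none of the 10 genes passed (edgeR), in a comparison where 12 genes, 0.0929% of those tested, did. The median over the 10 was -0.13. Glul had 622, 495, 689 and 655 CPM in CM livers, against 720, 834, 809 and 705 CPM in CV livers. Cyp2e1 had 4936, 2364, 5098 and 4890 CPM in CM livers, against 5303, 5632, 7668 and 5575 CPM in CV livers. For these 2 genes every CM library lay below every CV library, which held for 1.9% of all genes, but neither passed (Glul -0.32, adjusted p = 0.439, and Cyp2e1 -0.48, adjusted p = 0.553). CM replicate 2 was the lowest library for both, and without it the differences were -0.23 and -0.28.

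The intervals show what these libraries could still hold. They are not adjusted for the number of genes tested, so that of Glul excludes 1 although Glul did not pass. The 95% interval of the CM over CV ratio was 0.663 to 0.97 for Glul, 0.499 to 1.02 for Cyp2e1 and 0.597 to 1.25 for Cyp1a2. It was widest for Axin2, at 0.926 to 2.77, where CM livers averaged 5.07 ± 0.848 CPM and CV livers 3.17 ± 1.99 CPM (SD, n = 4). Slc1a2 (0.718 to 1.19), Oat (0.85 to 1.46) and Rnf43 (0.78 to 1.56) had intervals on both sides of 1.

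The ligand given during EE was compared with EE alone to ask whether it altered the EE response. In EM vs EV, Glul and Cyp2e1 rose and the other 8 did not pass (edgeR), against 1.69% of all genes passed and 1.51% passed upward. The fold changes of all 10 lay above 0, between 0.30 and 1.21, with a median of 0.65, against 0.00 over all tested genes. Glul had 338, 425, 525 and 516 CPM in EM livers, against 312, 254, 291 and 330 CPM in EV livers, and the groups did not overlap. The level in EM was 1.52-fold that in EV (0.60 ± 0.14, adjusted p = 0.0433). Cyp2e1 had 606, 751, 1234 and 1305 CPM in EM livers, against 385, 341, 460 and 500 CPM in EV livers. It was 2.31-fold higher in EM, with no overlap (1.21 ± 0.267, adjusted p = 0.0362).

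Both calls lay close to the threshold. Each was lost in 7 of the 8 fits that left out a library of either group. The exception was EM replicate 1, without which Glul rose by 0.72 (adjusted p = 0.00609) and Cyp2e1 by 1.38 (adjusted p = 0.00902). Both calls were also lost with library totals (Glul 0.49, adjusted p = 0.0982, and Cyp2e1 1.10, adjusted p = 0.0585) and when only the EM and EV libraries were fitted (adjusted p = 0.0836 for Glul and 0.055 for Cyp2e1). EM replicate 1 was the lowest EM library for both genes and the one nearest to EV on the first principal component.

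Slc1a2 was the remaining gene whose groups were apart, with 15.4, 16.6, 20.5 and 23.7 CPM in EM livers, against 10.2, 9.92, 14.4 and 12.7 CPM in EV livers (0.69 ± 0.192, adjusted p = 0.0916). An EM level above every EV library thus held for 3 of the 10 genes and for 6.56% of all genes. Cyp1a2 had 73, 109, 157 and 186 CPM in EM livers, against 73.9, 74.2, 52.1 and 78.8 CPM in EV livers, overlapping through EM replicate 1 (0.91 ± 0.275, adjusted p = 0.125). Without that replicate both passed, Cyp1a2 at 1.11 (adjusted p = 0.0245) and Slc1a2 at 0.78 (adjusted p = 0.048).

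The low Wnt feedback genes did not pass in EM vs EV. Lgr5 had 1.12, 1.46, 1.64 and 2.47 CPM in EM livers, against 0.974, 0.778, 1.15 and 1.1 CPM in EV livers (0.74 ± 0.281, adjusted p = 0.25). Rnf43 had 2.83, 2.5, 3.64 and 2.42 CPM in EM livers, against 3.48, 1.75, 1.81 and 2.21 CPM in EV livers (0.30 ± 0.271, adjusted p = 0.735). Tbx3 had 3.31, 9.76, 6.35 and 5.21 CPM in EM livers, against 4.04, 4.91, 3.62 and 3.94 CPM in EV livers (0.57 ± 0.29, adjusted p = 0.44). EM replicate 1 was below all EV libraries for Tbx3 and EM replicate 2 above them by the most. The same holds for Axin2, with 0.748, 3.48, 2.09 and 2.15 CPM in EM livers, against 1.95, 1.65, 1.45 and 1.73 CPM in EV livers (0.31, adjusted p = 0.837). Rhbg averaged 0.908 ± 0.353 CPM in EM livers and 0.532 ± 0.169 CPM in EV livers (0.76, adjusted p = 0.328). Oat averaged 672 ± 137 CPM in EM livers and 541 ± 107 CPM in EV livers (0.31, adjusted p = 0.579).

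Whether the ligand acted differently with and without EE was tested by the interaction, the EM vs EV change minus the CM vs CV change. None of the 10 genes passed, in a test that 0.132% of all genes passed (edgeR). Cyp2e1 had the largest value of the 10, at 1.69 ± 0.375 (95% interval of the ratio of ratios 1.94 to 5.38, adjusted p = 0.0737), followed by Lgr5 at 1.15 ± 0.39 (adjusted p = 0.198) and Cyp1a2 at 1.12 (adjusted p = 0.203). Glul stood at 0.92 ± 0.198 (1.45 to 2.48, adjusted p = 0.0671). Without EM replicate 1 both Glul (1.04, adjusted p = 0.00983) and Cyp2e1 (1.86, adjusted p = 0.0207) passed. For Axin2 the value was -0.37 (0.354 to 1.7), the only one of the 10 below 0.

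Livers with both agents were also set against vehicle, a comparison that shares its libraries with those above. In EM vs CV, 8 of the 10 genes were lower and none higher. Of all 12918 tested genes, 40.6% passed in either direction and 2583 passed downward. For 7 of the 10 genes every EM library lay below every CV library, against 18.1% of all genes. Cyp2e1 averaged 974 ± 348 CPM in EM livers and 6045 ± 1092 CPM in CV livers (16.1% of CV, adjusted p = 5.20e-06). Glul averaged 451 ± 88.0 CPM in EM livers and 767 ± 63.9 CPM in CV livers (58.8%, adjusted p = 5.10e-04). Rhbg stood at 21.6%, Cyp1a2 at 29.7%, Rnf43 at 30.7%, Slc1a2 at 33.6%, Lgr5 at 47.4% and Tbx3 at 51.5% of CV. Tbx3 overlapped and was lost with library totals (-0.58, adjusted p = 0.103), while Axin2 and Oat did not pass (adjusted p = 0.279 and 0.131). Oat passed without CV replicate 1 (-0.54, adjusted p = 0.0354) or EM replicate 4 (-0.56, adjusted p = 0.0436).

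EM against CM, the effect of EE among mice given the ligand, gave 9 genes lower (18.6% of all genes) and 7 without overlap (16.8%). Cyp2e1 averaged 974 ± 348 CPM in EM livers and 4322 ± 1308 CPM in CM livers (-2.15 ± 0.275, adjusted p = 2.78e-05). Axin2, which had not passed in EV vs CV, was lower here, with 0.748, 3.48, 2.09 and 2.15 CPM in EM livers, against 3.98, 5.9, 5.55 and 4.84 CPM in CM livers (-1.26 ± 0.408, adjusted p = 0.0233). Lgr5 did not pass (-0.67, adjusted p = 0.0669). With library totals, 3 of these calls were lost: Glul (-0.07, adjusted p = 0.66), Axin2 (-0.89, adjusted p = 0.0749) and Oat (-0.19, adjusted p = 0.458). The same 3 calls were also lost when libraries were left out: Glul without CM replicate 3 or 4 or EM replicate 1 or 2, Axin2 without CM replicate 3 or EM replicate 1, and Oat without CM replicate 2, 3 or 4 or EM replicate 1, 2 or 3. Lgr5 passed without EM replicate 4 (-0.93, adjusted p = 0.0175).

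Ratios between genes of the same library do not depend on the scaling, and are given as descriptions, since the pairs were chosen after values were seen. Cyp2e1 was set against Cyp2f2, a cytochrome P450 of periportal hepatocytes, whose own level did not pass in EV vs CV (-0.30 ± 0.249, adjusted p = 0.344). The log2 ratio was 0.74 ± 0.38 in EM, -0.25 ± 0.47 in EV, 3.13 ± 0.43 in CM and 3.34 ± 0.46 in CV livers (SD, n = 4). Glul was set against Gls2, the periportal glutaminase that releases the ammonia Glul captures. That ratio went the other way, at 2.24 ± 0.22 in EM, 2.41 ± 0.15 in EV, 1.22 ± 0.50 in CM and 1.28 ± 0.13 in CV livers, and Gls2 itself fell in EV vs CV (-2.49 ± 0.184, adjusted p = 6.68e-08).

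The fall of Cyp2e1 was also deeper than that of Glul. The log2 ratio of Cyp2e1 to Glul was 1.06 ± 0.27 in EM, 0.50 ± 0.16 in EV, 2.76 ± 0.34 in CM and 2.97 ± 0.21 in CV livers, and the libraries with EE lay below all libraries without it. Hnf4a, a transcription factor gene of all hepatocytes, itself fell in EV vs CV, with means of 218 CPM in EV and 304 CPM in CV livers. That call was lost with library totals. Against Hnf4a, Glul was at 1.07 ± 0.21 in EM, 0.44 ± 0.15 in EV, 1.18 ± 0.18 in CM and 1.33 ± 0.16 in CV livers. On this scale, too, the lowest EM library (0.87) was above the highest EV library (0.57).

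**Figure D3:**
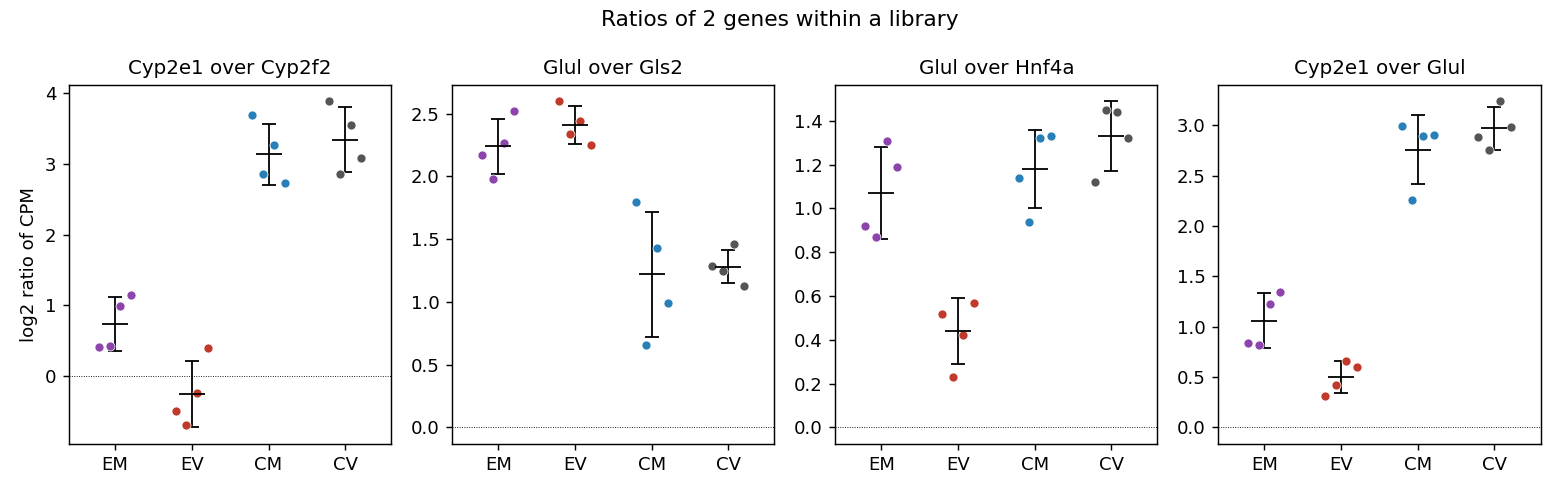
Log2 ratio of CPM (vertical axis, linear in log2) between 2 genes within each library, by group, for Cyp2e1 over Cyp2f2, Glul over Gls2, Glul over Hnf4a and Cyp2e1 over Glul. Points are libraries, the long bar is the mean and the whiskers are 1 SD (n = 4). The Glul over Gls2 ratio lies at 2.25 to 2.60 in EV and 1.13 to 1.46 in CV, while the Cyp2e1 over Glul ratio lies at 0.31 to 0.66 in EV and 2.76 to 3.24 in CV.

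Further feedback genes of the Wnt pathway were read from a list of 9, of which 5 were measured. In EV vs CV, 3 fell and 1 rose. Notum, a secreted enzyme that inactivates Wnt ligands, had 6.03, 8.31, 10.1 and 6.99 CPM in EV livers, against 38.5, 48.3, 55.7 and 41 CPM in CV livers (-2.55 ± 0.221, adjusted p = 3.14e-07). Znrf3, the partner of Rnf43 with the same ligase activity, fell by 1.45 on the log2 scale (adjusted p = 2.45e-06), Nkd1, an inhibitor of Dishevelled, changed by -0.99 (adjusted p = 8.09e-04), and Zfp703 rose by 0.64 (adjusted p = 0.00614). Notum rose in EM vs EV, averaging 14.9 ± 5.44 CPM in EM livers and 7.85 ± 1.76 CPM in EV livers (0.92 ± 0.215, adjusted p = 0.0433), a call lost in 6 of 8 fits that left out a library and with library totals (0.81, adjusted p = 0.0803). Znrf3 had 1.98, 2.2, 2.58 and 2.04 CPM in EM livers, against 1.21, 1.56, 1.57 and 1.47 CPM in EV livers, apart but not passed (0.60, adjusted p = 0.0729).

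Upstream genes of the pathway were read as well. Ctnnb1, which encodes beta-catenin, was at 139 ± 4.99 CPM in EM, 145 ± 7.02 in EV, 139 ± 13.2 in CM and 142 ± 4.99 in CV livers. The 95% interval of its EV over CV ratio was 0.927 to 1.12, but with library totals Ctnnb1 passed upward in that comparison. Its protein and phosphorylation were not measured. From a list of 7 genes of ligands, enhancers and ligand release, 4 were measured, none of them a gene of a Wnt ligand. Of these 4, 3 fell in EV vs CV. They were Rspo3, the R-spondin of the central vein endothelium (-0.59 ± 0.208, adjusted p = 0.0268), Porcn, which attaches the lipid to Wnt proteins (-1.19, adjusted p = 0.00104), and the secreted regulator Dkk3 (-1.36, adjusted p = 0.00345). Wls, which carries Wnt proteins to the surface, rose (0.80 ± 0.317, adjusted p = 0.0462). The Rspo3 call was lost with library totals (-0.11, adjusted p = 0.666) and in 4 of 8 fits without a library, and the Wls call in 7 of 8.

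Of 25 measured receptors and intracellular components, 6 rose and 7 fell in EV vs CV, with a median of -0.14. These shares are near those of all genes, of which 25.5% passed upward and 24.9% downward. The co-receptor Lrp5 rose (0.90 ± 0.121, adjusted p = 1.86e-05) and the R-spondin receptor Lgr4 fell (-1.14 ± 0.151, adjusted p = 1.76e-05). With library totals the split was 12 up and 3 down, so the balance of directions in this list follows the scaling. None of these 25 passed in CM vs CV or with the ligand under EE (EM vs EV), although with library totals 1 of them passed downward in EM vs EV.

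Among 19 other genes of pericentral hepatocytes, 13 fell and 2 rose in EV vs CV, with a median of -0.85. Rgn (-3.09), Cyp2a5 (-2.88), Pon1 (-2.63) and Gulo (-2.15) were among those that fell, and Cldn2 (1.53) and Ccnd1 (1.71) rose. Among 20 genes of periportal hepatocytes, 11 fell and 4 rose, with a median of -0.77. Those that fell included Pigr (-4.12), Hsd17b13 (-2.96), Gls2 (-2.49) and Cps1 (-1.82), the entry enzyme of the urea cycle. Hsd17b6 fell most (-7.82), with means of 1.26 CPM in EV and 286 CPM in CV livers. The 4 that rose were Arg1, Cdh1, Ctsc and Uroc1. Falls were found at both ends of the lobule. With library totals the counts were 9 down and 4 up for the pericentral list and 10 down and 6 up for the periportal list.

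Of the 19 pericentral genes 4 rose in EM vs EV, among them Pon1 (0.98), Rgn (1.10) and Gulo (0.84), with a median of 0.32 for the list. Of the 20 periportal genes 3 rose, Pigr (1.15), Hsd17b13 (1.11) and Gls2 (0.76), with a median of 0.33. These genes were named after their values were seen. Without EV replicate 2 none of either list passed. In every other fit that left out a library, 2 to 4 of the pericentral genes passed. Periportal genes passed only without EM replicate 1 (4 genes) or without EV replicate 4 (2 genes). With library totals 3 of the pericentral genes passed, Rgn being lost (adjusted p = 0.0512), and 0 of the periportal genes. In CM vs CV none of either list passed.

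The genes around Glul in glutamine, glutamate and ornithine metabolism changed in both directions with EE: of 15 measured, 10 fell and 3 rose in EV vs CV. Prodh, proline dehydrogenase (-2.73), the glutamine carrier Slc38a3 (-1.77), the urea cycle enzyme Otc (-2.29) and the glutamate dehydrogenase Glud1 (-0.65) fell. Aldh18a1 (2.33), which starts proline synthesis from glutamate, and the glutamine importer Slc1a5 (1.46) were among those that rose. With library totals 8 fell and 4 rose in EV vs CV, and Glud1 no longer passed. In the EM vs EV comparison 4 of the 15 rose, Otc (0.83), Prodh (1.07), Glud1 (0.43) and Gls2. That count was 0 without EV replicate 1 or 2 and 6 without EM replicate 1. With library totals it was 1, Otc (0.72, adjusted p = 0.0294).

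**Figure D4:**
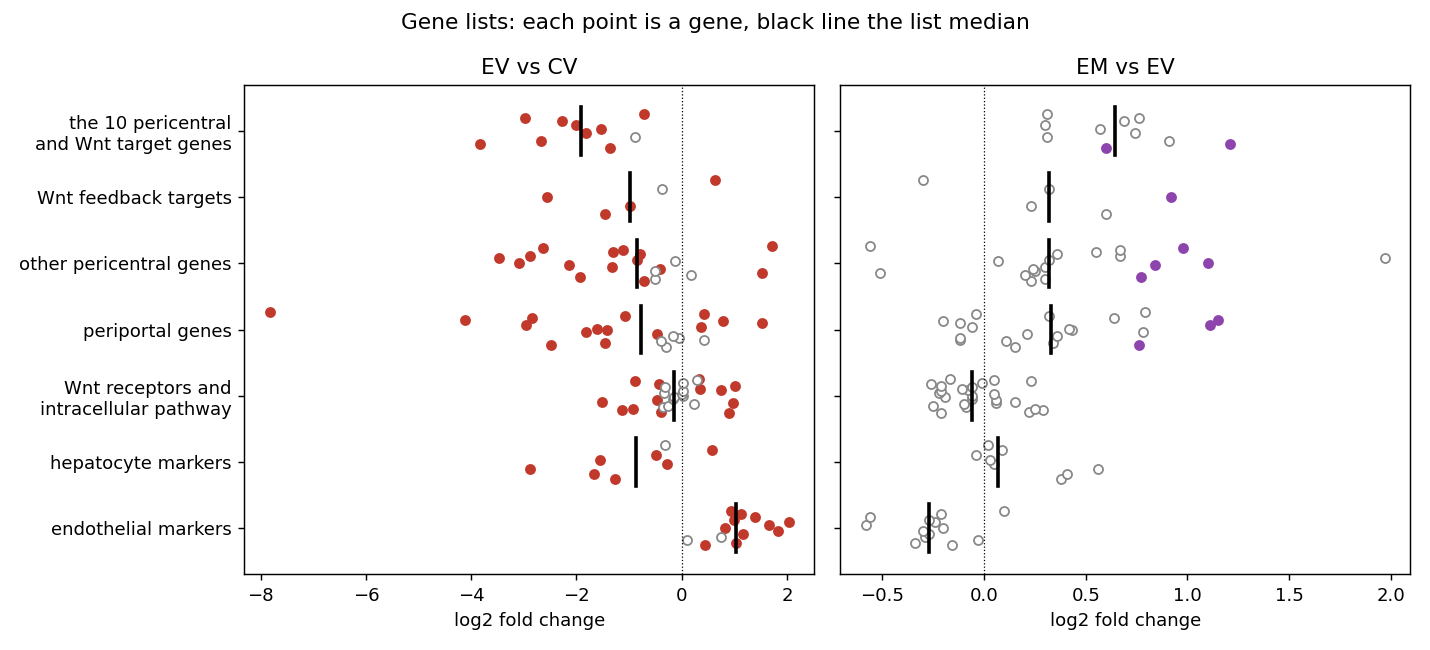
Log2 fold changes of the genes of 7 lists in the EV vs CV and EM vs EV comparisons (horizontal axes with different ranges). Each point is a gene, filled where its adjusted p was under 0.05 (edgeR), and the black line is the list median. For the 10 genes the EV vs CV median is -1.91 and the EM vs EV median is 0.65, and that of the endothelial markers is 1.03 in EV vs CV.

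Markers of the cells in the tissue moved with EE as well. The 8 general hepatocyte markers summed to between 36179 and 53128 CPM in EM and between 32351 and 40550 CPM in EV livers. The sums were between 84169 and 111600 CPM in CM and between 86254 and 110680 CPM in CV livers, above every library with EE. Alb alone averaged 34237 CPM in EM, 26234 in EV, 64783 in CM and 63412 CPM in CV livers. In EV vs CV, 6 of these 8 fell and Tat rose, with a median of -0.88, against -1.91 for the 10 genes. With library totals 4 fell and 2 rose (median -0.39), since Apob turned from -0.28 to 0.20 and Hnf4a (0.01) no longer passed. Of 13 endothelial markers 11 rose (median 1.03), with sums of 434 to 542 CPM in EM, 465 to 596 in EV, 189 to 290 in CM and 151 to 303 CPM in CV livers. Of 10 macrophage markers 9 rose (median 2.07), and all 14 measured proliferation genes rose (median 3.85). The part of these shifts in the levels of the 10 genes was not tested. None of these 4 lists had a gene that passed in EM vs EV, and all 14 proliferation genes had fold changes below 0 (median -0.50). Without EM replicate 1, 4 of the 14 proliferation genes passed downward (median -1.10).

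The genes whose pattern over the 16 libraries lay nearest to each abundant member were found among 11199 genes by the root mean square difference of log2 CPM after centring. For Glul they were Cdo1 (0.12), 1700001C19Rik (0.13) and Aadac (0.13). For Cyp2e1 they were Car5a (0.26), Gm4756 (0.34) and Tm7sf2 (0.34), and Car5a averaged 17.3 CPM in EM, 6.57 in EV, 91.7 in CM and 103 CPM in CV livers. For Cyp1a2 they were Slco1a4 (0.23), Car8 (0.26) and Rarres2 (0.27), and for Oat Lect2, Nadk2 and Dbt (0.17 each). None of the 10 genes described here could appear in these lists, since they were left out of the search.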

How the data were processed

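Liver RNA was sequenced as poly(A) libraries, per the labels' protocols, in 16 samples whose groups and replicate numbers came from their titles. The submitters' processing notes name STAR, Salmon and the GRCm39 build, without versions or roles. Which annotation was used, how reads were counted and whether strand was used is not given in the sources used here. Estimated counts make up the authors' deposited table, all as whole numbers. For genes with a 0 in some library, the smallest value above 0 had a median of 35.5 below 1000 bp of exon length and of 1 above 4000 bp, so the values appear rescaled by length and are not raw reads. They were tested as counts, and read depths are therefore approximate. Gene symbols and exon lengths came from GENCODE M21, an annotation of an earlier build, and symbols matched 12692 of 13006 identifiers. Promoters came from RefSeq on GRCm38.p6, matched by symbol. No pair of libraries had equal values in more than 3.24% of genes.

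Counts were filtered with filterByExpr, scaled with TMM factors and modelled in R 4.3.3 by edgeR 4.0.16, with 1 coefficient per group, all 16 libraries and 12 residual degrees of freedom. P-values of its quasi-likelihood tests were adjusted by Benjamini-Hochberg over 12918 genes, with a threshold of 0.05. The biological coefficient of variation was 0.284. Intervals are nominal 95% intervals, built from the fitted fold change and a standard error derived from its test. They use the normal distribution, so they may be too narrow with 12 residual degrees of freedom. They are not adjusted for the number of genes, so an interval can exclude 1 for a gene that did not pass. The members, the lists and the tests were chosen with earlier results of these data known. Genes were named by this rule: all 10 members, the 3 nearest genes of Glul, Cyp2e1, Cyp1a2 and Oat among genes whose mean log2 CPM reached 1, up to 4 of each list by p in EV vs CV, and the Wnt ligands and feedback genes, Ahr, Cyp2f2, Gls2 and Ctnnb1. Other named genes, and the choice among these, followed after values were seen. List genes without a row were not analysed here. Some genes that the rule names are not reported here.

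Alternatives were RLE factors, library totals, no low count filter, 1 CPM in 8 libraries, the replicate number as a block, only the groups compared, limma 3.58.1 with a trend, DESeq2 1.42.0 and each library left out. Leaving out libraries for the lists was added after the data were seen. On simulated counts with 200 changed genes, a 2-fold change was recovered in 71.6% of cases for EV vs CV, 43.3% for CM vs CV, 50.7% for EM vs EV and 37.3% for the interaction. Each comparison had its own random draw of changed genes, and each gene had the same mean level in all groups before the change. Far fewer genes were changed than passed in EV vs CV. These shares therefore do not rank the pairwise comparisons by sensitivity. Plots were made in Python 3.11.15 with matplotlib 3.10.9.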

Additional observations from a re-analysis of the deposited data

Results flagged for a closer look

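In 3 of 40 groups of 4 values, a library lay far from its group by Dixon's 95% criterion, which chance meets in about 1 in 20 groups. Cyp2e1 in CM replicate 2 had 2364 CPM, against 4890 to 5098 CPM in the other CM libraries. Cyp2e1 in CV replicate 3 had 7668 CPM, against 5303 to 5632 CPM in the other CV libraries. Lgr5 in CV replicate 3 had 5.29 CPM, against 2.9 to 3.07 CPM in the other CV libraries.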

How the results depend on the processing

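Leaving out each library in turn gave 9 to 10 members passed in EV vs CV, 8 to 9 in EM vs CV, 6 to 10 in EM vs CM, 0 in every fit of CM vs CV, 0 to 4 in EM vs EV and 0 to 2 in the interaction. Over all genes, taken as a share of 12918, these fits passed 45.4% to 48.1% in EV vs CV. That share was 35.2% to 38.5% in EM vs CV and 32.5% to 39% in EM vs CM. In EM vs EV the count was 4 without EM replicate 1 and 0 without any other library of these groups, with changes of 0.52 to 0.72 for Glul (adjusted p = 0.00609 to 0.183) and 1.03 to 1.38 for Cyp2e1 (adjusted p = 0.00902 to 0.152). It was also 0 with library totals and 0 with only the groups compared, and 4 with DESeq2, which added Cyp1a2 and Slc1a2. The interaction had 2 members with DESeq2. Over all genes, CM vs CV gave 12 calls, 2 with only the groups compared, 238 with DESeq2 and 4 to 39 without a library. EM vs EV gave 218 (1.69% of genes), 127 with library totals, 4.54% of genes with DESeq2, and 36 to 445 without a library. The interaction gave 17, 26 with library totals, 30 with limma, 462 with DESeq2 and 10 to 208 without a library. The share of calls that were upward was 50.5% in EV vs CV and 84.1% with library totals, and 89.4% in EM vs EV and 59.1% with library totals. Values near 0 changed sign in 4 cases when a library was left out: in CM vs CV, Slc1a2 (-0.24 to 0.04, above 0 without CV replicate 2) and Rnf43 (-0.05 to 0.37, below 0 without CM replicate 3), in EM vs EV, Axin2 (-0.03 to 0.59, below 0 without EM replicate 2), and in the interaction, Rnf43 (-0.07 to 0.42, below 0 without CV replicate 4). The causes of these differences were not tested. Fits without a library also had fewer samples.

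The replicate numbers did not pair the samples: over 24 same-numbered pairs the correlations of deviations were -0.0524 to 0.0957, and 6 of 16 libraries correlated best with their own number. With the number as a block, 3 members passed in EM vs EV, with Slc1a2 added (adjusted p = 0.0474), 1 in the interaction (Cyp2e1, adjusted p = 0.028), and 6 genes in CM vs CV and 79 in the interaction. Low counts limit Rhbg, Axin2 and Lgr5 most.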
